A study of Homo sapiens with 6 samples.

Results

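Open chromatin was described at 8 genes that write, copy, oxidise or remove DNA methylation, namely TET1, TET2, TET3, DNMT1, DNMT3A, DNMT3B, UHRF1 and TDG, out of 20033 protein-coding genes. The genes were chosen by name, and their regions by position. A region counted if a called peak overlapped the RefSeq span of a gene or the 50 kb to each side of it. TET3 was added for a region called in 1 group alone and has 100 kb to each side, so the group contrast at TET3 chose this gene and is given without a test. The 8 windows covered 1.63 Mb and held 87 of the 69562 regions that the peaks of all libraries formed when peaks overlapping by at least 1 bp were merged.

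The peaks came from ATAC-seq, in which a transposase inserts adapters into accessible DNA, on Jurkat nuclei. Jurkat is a human leukaemia line of T cells, here grown in RPMI1640 with fetal bovine serum. The group at normal gravity (NG) had 3 libraries, and the group under simulated microgravity (SMG) had 3 libraries whose nuclei, after lysis and in place of intact cells, were turned by a random positioning machine at 30 degrees per second for 30 min at 37 °C. The labels leave unsaid whether transposition took place during rotation. All 6 libraries came from 50000 cells of the same line, with a lysis of 3 min and a transposition of 30 min. The labels give 37 °C for all 6. The labels do not name separate cultures, so the spread between libraries of a group may be technical. Each library had 1 list of called peaks without read counts, so depth was unknown, and a peak that was not called does not show closed chromatin.

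The lists held 37782 to 43713 peaks, the fewest in NG 1, whose peaks covered 18.1 Mb against 21.6 to 23.9 Mb in the other 5 libraries. Of 5 T cell markers with a listed gene start, CD3D, CD247, LCK and ZAP70 had a peak within 1 kb in all 6 libraries. CD2 had one in the 3 SMG libraries alone. Ranked by −log10 q-value from the weakest peak of each list upwards, it stood at 43.7%, 26.8% and 31.2% in SMG 1 to SMG 3. Of 15842 protein-coding genes with a listed start, 0.0884% had such a peak in the 3 SMG libraries alone. For the 3 NG libraries alone the share was 0.0757%. The difference at CD2 was not tested, and a missing call does not show closed chromatin. Of markers of other cell types, CD68 of the myeloid list (1 of 4 with a listed start) had a peak within 1 kb in all 6 libraries. Of the rest, 0 of 2 B cell, 0 of 1 NK cell and 0 of 1 epithelial or fibroblast markers had one in any library.

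Methylation of cytosine in CG dinucleotides (CpG) is set anew by DNMT3A and DNMT3B and copied after replication by DNMT1, which UHRF1 guides to half-methylated DNA. The TET enzymes oxidise methylated cytosine step by step, and TDG, a glycosylase, cuts out the last oxidised forms so that repair can restore plain cytosine. In blood and T cells DNMT3A and TET2 are known as genes that are often mutated in leukaemia and clonal blood growth. Promoters rich in CpG are usually unmethylated and accessible, which is why the sequence at the gene starts is shown first.

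RefSeq promoters of build GRCh38.p14 list 19 starts for the 8 genes. The 6 sequences below are the 250 bases before a start, 5′ to 3′ on the gene's strand, with each CG in capitals. They are shown because they include the start with the highest peaks, the single start of the maintenance enzyme, a gene with a weak and a strong start, and a pair of starts where no library had a peak.
TDG, chr12:103965622-103965871, plus strand: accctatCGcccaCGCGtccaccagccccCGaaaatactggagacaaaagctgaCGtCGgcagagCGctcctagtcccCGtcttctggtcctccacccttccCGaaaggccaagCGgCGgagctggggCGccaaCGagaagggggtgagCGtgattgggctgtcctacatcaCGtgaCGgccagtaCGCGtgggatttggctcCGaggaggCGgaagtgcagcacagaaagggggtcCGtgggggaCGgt
DNMT1, chr19:10194954-10195203, minus strand: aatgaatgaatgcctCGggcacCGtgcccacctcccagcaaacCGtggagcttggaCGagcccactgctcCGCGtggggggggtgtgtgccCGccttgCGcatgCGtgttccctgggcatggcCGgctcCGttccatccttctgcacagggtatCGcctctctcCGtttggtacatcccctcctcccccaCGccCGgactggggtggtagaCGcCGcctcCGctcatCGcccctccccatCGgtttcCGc
TET1 outer start, chr10:68560087-68560336, plus strand: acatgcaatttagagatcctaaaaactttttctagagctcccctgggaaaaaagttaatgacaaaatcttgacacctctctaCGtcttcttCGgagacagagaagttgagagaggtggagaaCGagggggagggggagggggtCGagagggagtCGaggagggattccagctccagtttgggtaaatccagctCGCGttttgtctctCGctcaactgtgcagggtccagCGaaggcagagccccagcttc
TET1 inner start, chr10:68600018-68600267, plus strand: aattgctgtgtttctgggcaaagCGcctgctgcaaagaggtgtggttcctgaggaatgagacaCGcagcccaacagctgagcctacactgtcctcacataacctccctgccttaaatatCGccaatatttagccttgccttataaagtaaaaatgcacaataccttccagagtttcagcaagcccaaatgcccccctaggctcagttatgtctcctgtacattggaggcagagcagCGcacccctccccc
TET3 outer start, chr2:73984660-73984909, plus strand: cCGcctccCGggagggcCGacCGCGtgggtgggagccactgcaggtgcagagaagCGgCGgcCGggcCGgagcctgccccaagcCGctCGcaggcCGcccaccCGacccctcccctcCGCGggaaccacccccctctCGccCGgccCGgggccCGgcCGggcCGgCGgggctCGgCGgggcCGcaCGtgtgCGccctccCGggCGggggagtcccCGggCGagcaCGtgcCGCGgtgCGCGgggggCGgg
DNMT3B, chr20:32779602-32779851, plus strand: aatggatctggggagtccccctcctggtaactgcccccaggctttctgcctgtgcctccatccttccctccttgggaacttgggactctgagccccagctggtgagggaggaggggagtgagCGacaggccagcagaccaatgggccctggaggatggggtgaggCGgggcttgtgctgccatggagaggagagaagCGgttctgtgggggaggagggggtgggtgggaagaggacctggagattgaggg

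The TDG and DNMT1 stretches held 22 and 21 CpG, against a median of 16 over the 22198 listed starts of protein-coding genes. The outer TET1 stretch held 9 CpG, the inner one 4, the DNMT3B stretch 3 and the outer TET3 stretch 37. With ties split evenly, the outer TET3 stretch ranked at 95.4% of listed starts. The GC content of the same 250 bases was 84% at the outer TET3 start and 64% at the DNMT3B start. Fixed motifs were searched on both strands of these bases, and a match is a description of letters alone. CGCATGC, the core of an NRF1 site, occurred at 1 place before DNMT1, where it matched both strands with overlap, and 4.07% of listed starts held it. CCAAT matched at TDG, at DNMT3B and 2 times at the inner TET1 start (32.7% of listed starts). TATAAA matched once, before the inner TET1 start (9.01% of listed starts). GGGCGG matched 3 times before the outer TET3 start (53.7%), TTCCCGC once there (6.96%), and CCGGAAG at none of the 6 (10.7%).

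Peaks at the gene starts set the members apart from each other. A start peak is a peak within 1 kb of a listed start, and its percentile is its rank by −log10 q-value in its own library's list, where 100 is the strongest. In all 6 libraries 5 of the 8 genes had a start peak, against 49.7% of the 15842 protein-coding genes with a listed start. TET3 and UHRF1 had one in 3 libraries each, 1 NG and 2 SMG. DNMT3B had none in any library, which held for 37.7% of the 15842 genes. The listed starts are not complete, and a gene with several starts has more chances of a peak.

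**Figure D1:**
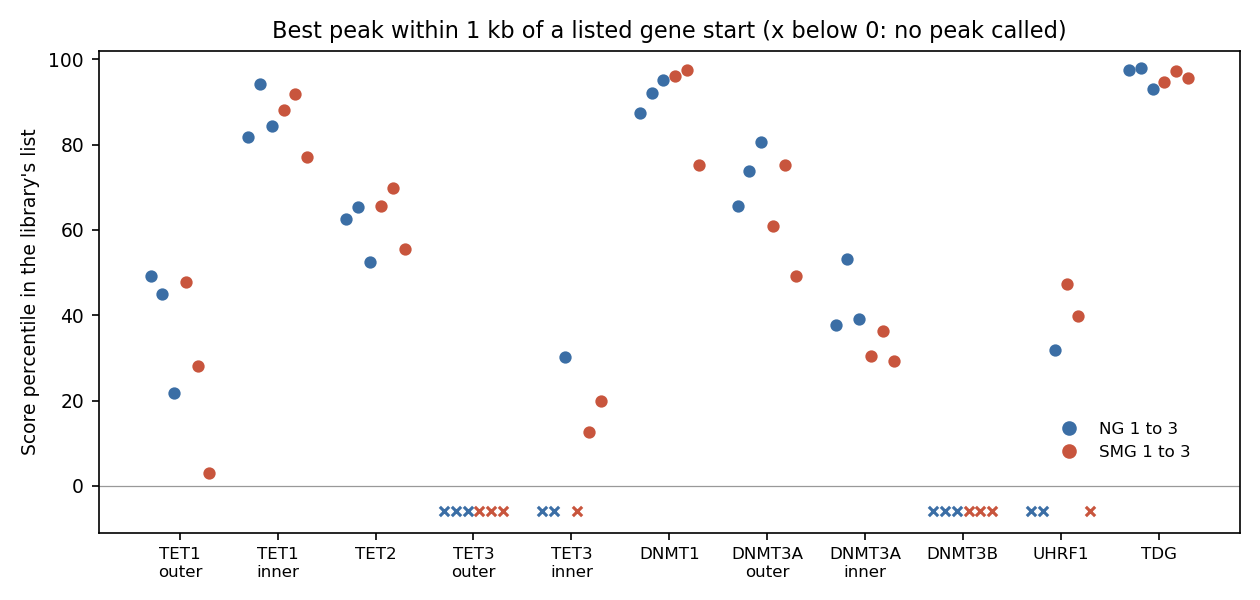
Score percentile (vertical axis, 0 to 100) of the best peak within 1 kb of each listed start site of the 8 genes, 1 point per library, with crosses below 0 where no peak was called. TDG stood at 93.1 to 97.8 in every library, the outer TET3 start and the DNMT3B start had no peak in any library, and the inner TET1 start stood above the outer one in 6 of 6 libraries.

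TDG, the glycosylase of active demethylation, had the highest start peak, on chromosome 12 (103965510 to 103966486, hg38). Its percentile was 97.5, 97.8 and 93.1 in NG 1 to NG 3 and 94.7, 97.2 and 95.6 in SMG 1 to SMG 3. The groups overlapped, and the mean over libraries was 96.0 ± 1.86 (SD, n = 6). DNMT1, the maintenance methyltransferase, followed with 87.4, 92.2 and 95.1 at normal gravity and 96.0, 97.5 and 75.1 under simulated microgravity (chromosome 19, 10194404 to 10195473). SMG 3 was the lowest of the 6 and SMG 2 the highest, so that the groups overlapped here too.

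TET1, the first described dioxygenase of methylated cytosine, has an outer start and an inner start 39.9 kb further along the gene. At the inner start (chromosome 10, 68600007 to 68600827) the percentiles were 81.8, 94.1 and 84.3 in NG 1 to NG 3 and 88.1, 91.8 and 77.2 in SMG 1 to SMG 3. At the outer start (68559958 to 68560909) they were 49.3, 44.9 and 21.8 in NG 1 to NG 3 and 47.8, 28.2 and 3.04 in SMG 1 to SMG 3. The inner start stood above the outer start in 6 of 6 libraries, by 53.7 percentile points in the mean, a comparison chosen after the values were seen. Both of its listed starts lay within the region. The 250 bases before the first of them held 4 CpG, in a class (0 to 4) in which 8.13% of 4933 listed starts had a peak in all 6 libraries. Those before the second held 11 CpG, in a class (10 to 19) in which 60.6% of 5334 had one.

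DNMT3A, the methyltransferase of new methylation in blood cells, had a stronger outer than inner start. At the outer start (chromosome 2, 25342267 to 25343072) the percentiles were 65.6, 73.7 and 80.6 in NG 1 to NG 3 and 60.9, 75.1 and 49.3 in SMG 1 to SMG 3. At the inner start, 89.8 kb inside the gene (25251359 to 25252251), they were 37.7, 53.2 and 39.1 in NG 1 to NG 3 and 30.5, 36.2 and 29.2 in SMG 1 to SMG 3. The outer start was the higher in 6 of 6 libraries. At the inner start every NG library stood above every SMG library, which held at 5.06% of all 24103 regions with a peak in all 6 libraries. The exact permutation p there was 0.1, the smallest possible, with an adjusted p of 0.962 over all such regions. TET2, the dioxygenase mutated in blood cancers, had its best start peak over its CpG-rich second listed start (chromosome 4, 105145900 to 105147204). This peak stood at 62.4, 65.4 and 52.4 in NG 1 to NG 3 and 65.6, 69.7 and 55.5 in SMG 1 to SMG 3, with overlap of the groups. A weaker peak beside it (105147378 to 105148165) was called in NG 2 (14.8), SMG 1 (45.3) and SMG 3 (27.6).

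In order of mean percentile over 6 libraries, TDG was followed by DNMT1 (90.6 ± 8.36), the inner TET1 start (86.2 ± 6.36), the outer DNMT3A start (67.5 ± 11.4), TET2 (61.9 ± 6.62), the inner DNMT3A start (37.6 ± 8.59) and the outer TET1 start (32.5 ± 18.3), each as SD with n = 6. The steps from inner TET1 to outer DNMT3A (18.7 points) and from TET2 to inner DNMT3A (24.2 points) were larger than either SD, with the same order in 6 of 6 libraries. The other 4 steps, of 4.34 to 5.69 points, were within the larger SD. Genes open at the start in all 6 libraries had a median of 81.7, so TDG, DNMT1 and TET1 lay above it and TET2 and DNMT3A below.

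The other starts were weak or had no peak. At the inner TET3 start (chromosome 2, 74002332 to 74002922) NG 3 stood at 30.2, SMG 2 at 12.5 and SMG 3 at 19.97, and NG 1, NG 2 and SMG 1 had no peak. At its outer start no library had a peak within 1 kb. The nearest peak was 3113, 3154 and 3130 bp away in NG 1 to NG 3 and 3310, 3127 and 3123 bp away in SMG 1 to SMG 3. Of 944 listed starts with a GC content of at least 80%, 28.3% had a start peak in all 6 libraries, against 66.8% of the 8262 other starts with at least 20 CpG, and the part of base composition at TET3 was not tested. UHRF1, which recognises half-methylated CpG, had start peaks of 31.7 in NG 3, 47.3 in SMG 1 and 39.8 in SMG 2 (chromosome 19, 4909822 to 4910223), and none in NG 1, NG 2 and SMG 3. Its 3 listed starts had a GC content of 73.2%, 75.2% and 81.2%. A listed start of DNMT3A (25341925) had 82.4% and a start peak in all 6 libraries. The part of base composition was not tested at these genes either.

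DNMT3B, the methyltransferase best known from early embryos, had no peak within 1 kb of its listed start, where the nearest peak lay at 1074 bp in NG 1 and at 10296 to 14361 bp in the other 5 libraries. The RefSeq span of DNMT3B begins 17.5 kb before that start, and a peak of NG 1 alone, at percentile 38.4, lay 172 bp from its edge. The span of UHRF1 begins 6.42 kb before its first listed start and that of TET3 1.28 kb before it, and 0 of 6 libraries had a peak within 1 kb of either edge.

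By Euclidean distance over the 6 start percentiles, among 7876 other genes with a start peak in all 6 libraries, the closest to TDG was C2orf76 (distance 1.03) and to DNMT1 TMEM170B (4.79). The closest to TET1 was STK4 (4.96), to TET2 IARS2 (7.18) and to DNMT3A ARL16 (9.47). These distances rest on 6 libraries and describe likeness of rank alone.

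**Figure D2:**
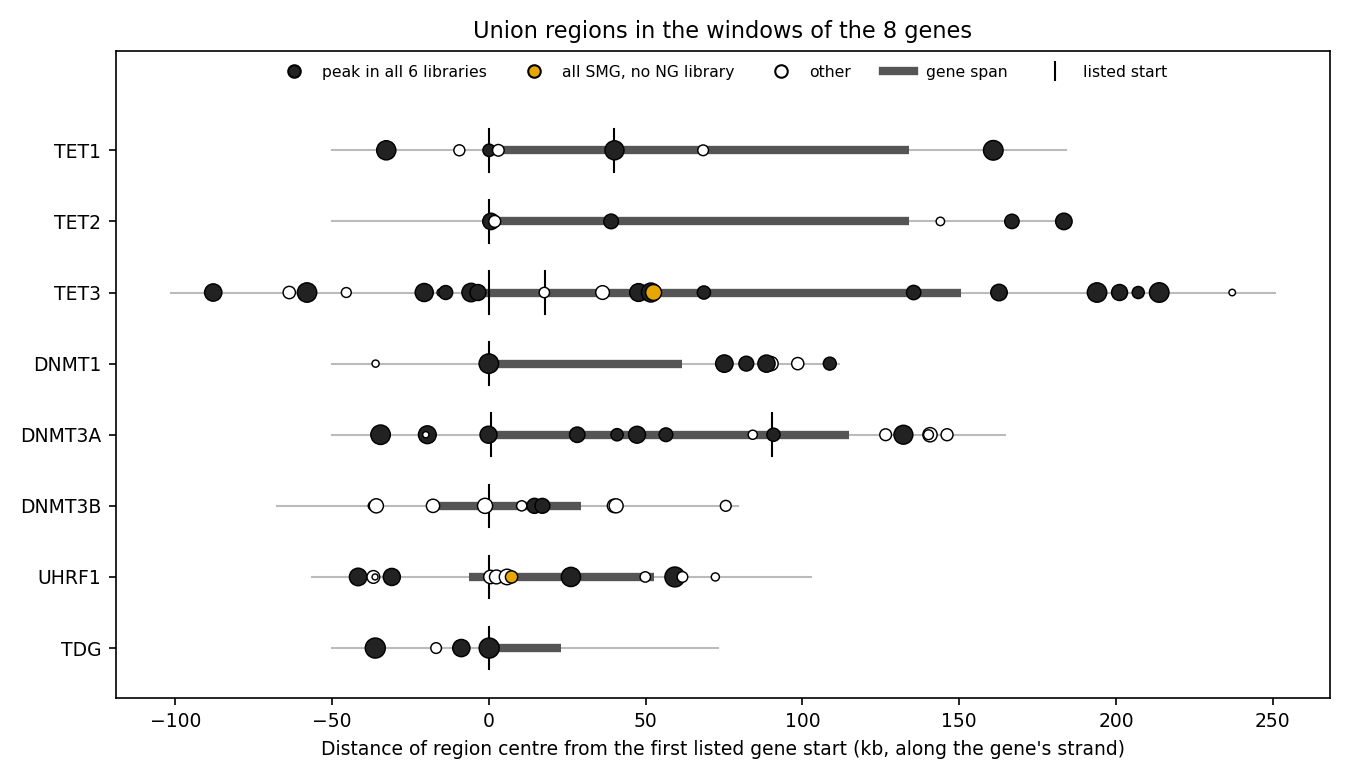
All 87 regions at the 8 genes, by distance of their centre from the first listed start in kb along the gene's strand; point area follows the mean score percentile, black marks a peak in all 6 libraries and gold a peak in the 3 SMG libraries alone. TET3 has 22 regions and TDG 4, and the 2 gold points lie inside TET3 and UHRF1.

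Away from the starts the genes differed in how many constant regions, here regions with a peak in all 6 libraries, surrounded them. Of the 87 regions 46 were constant (52.9%, against 34.6% of all 69562), 19 were held by 1 library and 22 by 2 to 5. Outside the window of TET3, which was chosen for a region in it, 31 of 65 were constant. The median mean percentile was 68.5 for the constant regions and 22.4 for those of 1 library, and over all regions it was 68.4 and 12.9. Constant regions at the starts of other genes in the windows were the highest, with a median of 80.7 over 12 regions, against 50.5 over the 12 inside a member away from its listed starts. The windows were chosen for genes, which bears on their share of constant regions.

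TET3 had 15 constant regions, 4.26 per 100 kb, against a median of 1.43 for protein-coding genes with windows of 100 kb to each side. With ties split evenly, it ranked at 95.4% of those genes. TET3 was chosen for a region in its window, so nothing is read from this rank. DNMT3A had 9 constant regions, 4.19 per 100 kb, which ranked in the same way at 91.1% of genes with 50 kb to each side (median 1.51). DNMT1 had 5, and TET1, TET2 and UHRF1 had 4 each. TDG had 3 and DNMT3B 2, and DNMT3B with 1.36 per 100 kb was the single member below the median. The strongest regions around TET3 were gene starts of its neighbours MTHFD2, a mitochondrial folate enzyme (mean 90.8), and MOB1A, a Hippo pathway adaptor (89.9).

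Inside the genes, DNMT3A carried 4 constant regions between its start sites, at 28.2, 40.9, 47.3 and 56.5 kb from the first listed start, with mean percentiles of 54.2, 31.8, 66.2 and 41.3. UHRF1 carried a strong one 26.2 kb inside the gene (chromosome 19, 4935155 to 4936245), at 87.4, 83.9 and 85.9 in NG 1 to NG 3 and 86.0, 89.5 and 94.9 in SMG 1 to SMG 3. It stood above the start peak of UHRF1 in each library that had one. TET2 had a region 39.0 kb inside (105184634 to 105185132) that varied more, from 21.0 in NG 2 to 79.3 in SMG 2.
Both constant regions of DNMT3B lay inside the gene, 14.6 and 17.1 kb after its listed start, with means of 51.0 and 49.99. DNMT1 had no region inside its span other than the one at its start, and TDG likewise.

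In the flanks, the region at −34.5 kb from the first DNMT3A start (chromosome 2, 25376577 to 25377629) stood at a mean of 90.4 and the one beyond the far end (25209962 to 25210773) at 84.7. TET1 was flanked by a region at −32.7 kb from its first start (68527094 to 68528180, mean 87.4) and by the start of CCAR1, a coactivator of cell cycle and apoptosis (mean 91.3). The start of HSP90B1, a chaperone of the endoplasmic reticulum, stood at 95.9 near TDG, and that of KDM4B, a histone demethylase, at 94.4 near UHRF1. The region nearest to a window's border on the inside lay 49.1 kb beyond TET2 (105328893 to 105329641, all 6 libraries, mean 62.9). The nearest one on the outside lay 56.6 kb from DNMT1 (10251526 to 10252534, all 6 libraries, mean 80.2).

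The comparison of the groups asked whether accessibility at these genes differed under simulated microgravity. The pooled values leave out TET3, since its group contrast chose it. The 7 other windows held 37, 48 and 47 peaks in NG 1 to NG 3 and 45, 42 and 42 in SMG 1 to SMG 3, or 44 ± 6.08 and 43 ± 1.73 (SD, n = 3 each). NG 1, with the shortest list, was the lowest, and the groups overlapped. As a share of its own list a library had 0.0979%, 0.110% and 0.116% at normal gravity and 0.107%, 0.0991% and 0.106% under simulated microgravity. The group means were 0.108% ± 0.00908 and 0.104% ± 0.00418. Peaks covered 1.89% ± 0.236 of the 7 windows at normal gravity and 2.00% ± 0.0309 under simulated microgravity, a difference smaller than the SD of the NG group. With TET3 the 8 windows held 61.3 ± 7.37 and 62.3 ± 1.15 peaks, so the sign of the difference turned, and peaks covered 0.149 percentage points more of them under simulated microgravity. That coverage difference was −0.00247 without NG 1 and 0.237 without NG 3.

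**Figure D3:**
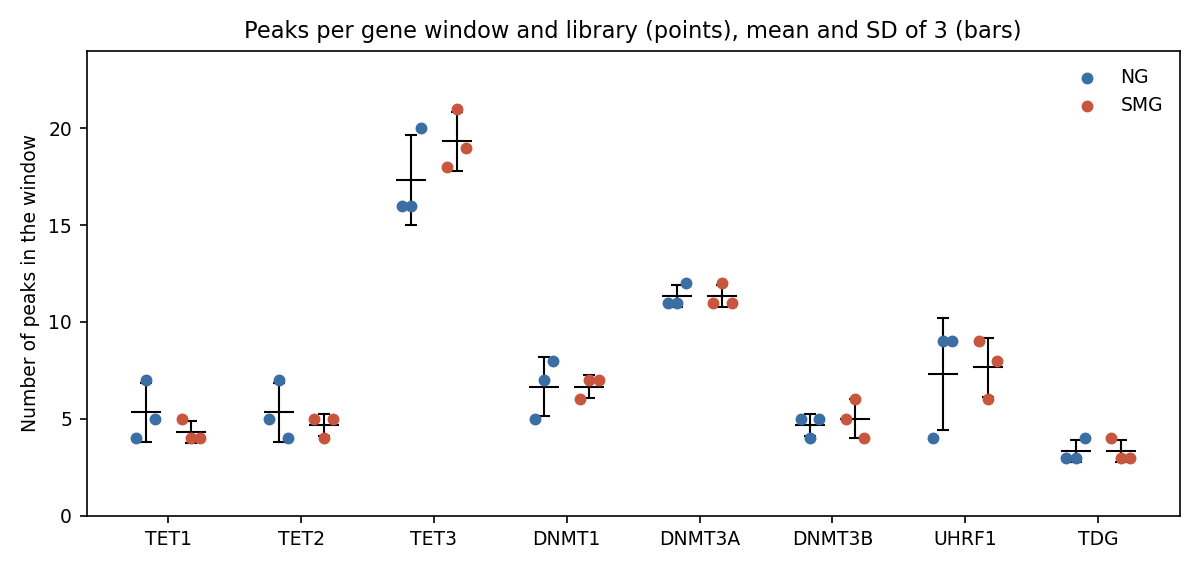
Number of peaks in the window of each gene (vertical axis, from 0), 1 point per library in blue (NG) and red (SMG), with the mean and SD of 3 libraries. The points of the groups overlap at each of the 8 genes, and the widest spread is that of UHRF1 at normal gravity, where NG 1 had 4 peaks and NG 2 and NG 3 had 9 each.

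Gene by gene, 0 of the 8 windows had peak numbers without overlap between the groups. Over all protein-coding genes every SMG library was above every NG library in 1.84% of windows of 50 kb and in 2.6% of those of 100 kb, and the reverse held in 0.844% and 0.998%. UHRF1 had 4, 9 and 9 peaks in NG 1 to NG 3 and 9, 6 and 8 in SMG 1 to SMG 3. TET1 had 4, 7 and 5 against 5, 4 and 4, and TET2 had 5, 7 and 4 against 5, 4 and 5, in the same order of libraries. NG 2 was the highest at both of these genes. DNMT1 had 5, 7 and 8 against 6, 7 and 7, and DNMT3A 11, 11 and 12 against 11, 12 and 11. DNMT3B had 5, 4 and 5 against 5, 6 and 4, and TDG 3, 3 and 4 against 4, 3 and 3. For these 7 genes the SMG minus NG difference ran from −1 (TET1) to 0.333 peaks (DNMT3B and UHRF1). The exact permutation p was 0.7 at TET1, 0.9 at TET2 and 1 at the other 5, two-sided, with an adjusted p of 1 over all 20033 genes. With 3 libraries in each group the smallest possible p was 0.1. TET3, given without a test, had 16, 16 and 20 peaks at normal gravity and 18, 21 and 19 under simulated microgravity.

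Regions called in all SMG and no NG libraries numbered 2 of the 87, and the reverse 0, where the shares over all regions were 0.411% and 0.26%. One of the 2 was the region for which TET3 was chosen, so nothing is read from this count. Outside the TET3 window it was 1 of 65 regions, at UHRF1.

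The TET3 region lay inside the gene, 52.6 kb after its first listed start (chromosome 2, 74037347 to 74037582, 236 bp), so a window of 50 kb to each side holds it as well. Its percentile was 60.3, 43.6 and 69.7 in SMG 1 to SMG 3, and no NG library had a peak there. By mean percentile it ranked 2 of the 286 such regions of the genome. The region was the reason for choosing TET3, so nothing is read from its rank. The authors' fold enrichment of its 3 peaks was 4.11, 3.46 and 4.40, below the median of their lists (5.31, 5.50 and 5.56). The summits lay at 74037477, 74037508 and 74037488, and the 3 peaks ended at the same base, which held for 1 of the 286 regions.

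A constant region (74036058 to 74037178) ended 168 bp before the TET3 region. The NG peaks of that region were separated from it by 235, 196 and 214 bp, in the order of the replicates. The constant region stood at 83.6, 82.5 and 76.9 in NG 1 to NG 3 and at 85.9, 90.0 and 95.3 in SMG 1 to SMG 3. The group contrast at TET3 chose the gene, so nothing is read from these ranks. Over all 24103 constant regions every SMG library ranked above every NG library in 5.34%. If peaks up to 200 bp apart are merged, both become 1 region held by all 6 libraries and the SMG-only call at TET3 ends. Of the 286 SMG-only regions, 8.04% lay within 500 bp of a constant region. Their median mean percentile was 26.0, and the TET3 region, for which the gene was chosen, stood at 57.9, which is a description alone.

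**Figure D4:**
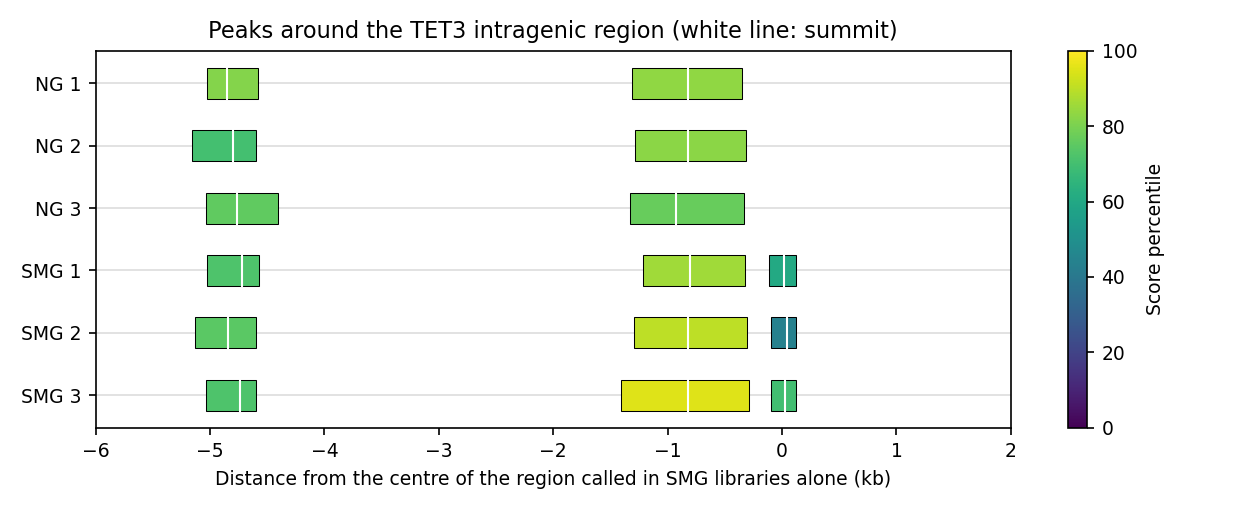
Called peaks of each library around the region inside TET3, by distance from its centre in kb, coloured by score percentile with the summit as a white line. Peaks near 0 kb occur in SMG 1, SMG 2 and SMG 3 alone, and the larger peak that ends 168 bp or more to their left is present in all 6 libraries.

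The region at UHRF1 (chromosome 19, 4916507 to 4917013, 507 bp) lay 7.26 kb after the first listed start, inside UHRF1 and over the end of the span of ARRDC5, an arrestin-like gene named after its values were seen. Its percentile was 21.3, 26.8 and 47.5 in SMG 1 to SMG 3, which ranked 86 of 286. The nearest NG peaks lay 18360, 4480 and 1082 bp away in NG 1, NG 2 and NG 3. Among peaks with a −log10 q-value of at least 5 the region at UHRF1 was no longer called in all SMG libraries and the one at TET3 was.

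Among the 46 constant regions the ranks of the groups were set side by side, a comparison added after the data were seen. Outside the TET3 window, which is left out because its contrast chose it, every SMG library ranked above every NG library at 2 of 31 (6.45%) and the reverse held at 1 (3.23%), where the shares over all 24103 constant regions were 5.34% and 5.06%. With TET3 the counts were 3 and 2 of 46. The 3 were the region beside the SMG-only call in TET3, a region inside DNMT3B and the start of PLIN3, a lipid droplet protein, near UHRF1. The DNMT3B region (chromosome 20, 32794194 to 32794659) stood at 38.2, 46.1 and 37.4 in NG 1 to NG 3 and 78.4, 58.2 and 47.6 in SMG 1 to SMG 3. The 2 others were the inner DNMT3A start and a region beyond TET3 at 74185720 to 74186401, with a mean of 67.6 ± 4.51 for NG and 49.9 ± 10.3 for SMG libraries (SD, n = 3 each). Outside the TET3 window the adjusted p was 0.962 over all constant regions at each of the 3 (exact permutation p = 0.1, two-sided, the smallest possible). Without 1 library fewer values had to separate. Over the 31 or 32 constant regions outside TET3 the first count was then 5 without NG 1 or SMG 1, 3 without NG 2, 2 without NG 3, 4 without SMG 2 and 6 without SMG 3. These were 6.25% to 19.4% of the regions, where the shares over all constant regions ran from 8.33% to 12.7%. The second count was 3 without NG 1 or SMG 3, 2 without NG 2, 4 without NG 3 or SMG 2 and 1 without SMG 1. These were 3.23% to 12.9%, where the shares over all ran from 8.25% to 11.7%.

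**Figure D5:**
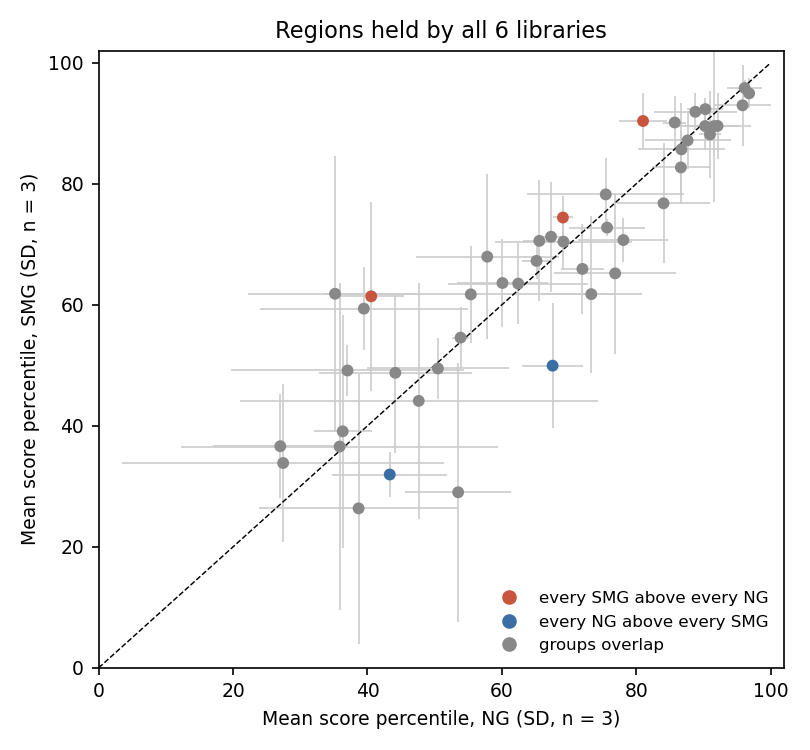
Mean score percentile of the 46 constant regions at normal gravity (horizontal) and under simulated microgravity (vertical), with SD bars of 3 libraries and the line of equality. Of the 46 points, 3 (red) have every SMG library above every NG library and 2 (blue) the reverse, of which 1 each lies in the TET3 window; the rest overlap.

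Most genes listed as acting with the 8 enzymes had a start peak in all 6 libraries. Of 56 genes on a list of partners, readers and repair factors of DNA methylation, 46 had a listed start. Of these 33 (71.7%) had a start peak in all 6 libraries, 7 in some and 6 in none. Of all genes with a listed start, 49.7% had one in all 6 and 37.7% in none. NG libraries had 36, 37 and 38 of the 46 and SMG libraries 36, 38 and 38, or 37 ± 1 and 37.3 ± 1.15 (SD, n = 3 each), a difference within the SD of both. A start peak in every library of one group alone occurred at 0 of 46 in either direction, and the share over all genes was 0.0884% (SMG alone) and 0.0757% (NG alone). The 6 without a start peak were DPPA3 and ZFP57, known from early embryos, WT1, a transcription factor of kidney and gonad development, CXXC4 and ZBTB38, which bind CpG-containing DNA, and EHMT2, a histone methyltransferase. MBD3, a subunit of the NuRD complex, differed by 2 libraries, with weak peaks in SMG 2 (percentile 2.78) and SMG 3 (6.64) and none in NG libraries.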

How the data were processed

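The authors deposited 1 peak list per library, 6 in all, in the narrowPeak layout with 10 columns. Per the submitters' processing notes FastQC, BWA, Bowtie, SAMtools and MACS2 were used with build hg38; for versions, settings, duplicate handling and read shifts the labels give nothing. The deposited columns are an integer score (10 times the −log10 q-value for 99.955% or more of peaks), a fold enrichment ratio of summit over local background, −log10 p-values and −log10 q-values, and a summit offset. Peak names of SMG 3 carry the word "normalized", which the labels do not explain. These scores are the authors' own and were used only to rank, filter or describe peaks within a list.

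With Python 3.11.15, pandas 2.3.3 and numpy 2.4.6, peaks overlapping by 1 bp were merged into regions, counted per gene window and matched to RefSeq genes and listed starts (GRCh38.p14), the starts taken from a promoter table. Starts were used as that table gives them. Group differences in peak number were tested by exact permutation for every gene window, with Benjamini-Hochberg adjustment, and the code was checked on made-up lists with known answers. Named were the 8 genes, their start peaks, strong constant regions and group-only regions, neighbours at such regions, list genes with no start peak or a difference of 2 libraries, and the closest gene by start percentiles. Members, lists and tests were chosen with earlier results of these data known.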

Additional observations from a re-analysis of the deposited data

How the results depend on the processing

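The replicate numbers come from the labels alone, and whether they pair the libraries is not known. Deviations of same-numbered libraries from their group means, over all gene windows, correlated at 0.0532, 0.0576 and −0.0133. Those of libraries with different numbers correlated at −0.0739 to 0.0254. Values this small from 3 libraries per group cannot settle the pairing. With the replicate number as a block, the difference at TET1 was −1 peak (exact sign-flip p = 0.75, smallest possible 0.25); in this balanced design the block leaves each difference as it is, and neither test could reach 0.05 here, so it says nothing on stability. With flanks of 20 kb 30 constant regions remained in the smaller windows, and the DNMT3B difference in peak number was −0.333; it was −0.333 also with the same number of top peaks per list (37782). With a −log10 q-value of at least 5 the difference was −1 at DNMT3B, 1 at TET2, −1.33 at DNMT3A (0 with all peaks) and 1 at UHRF1, the pathway list differed by −1.33 genes and 1 SMG-only region was left. SMG-only regions numbered 4 if a library's peaks had to cover at least 50% of a region, and 1 with merging up to 200 bp. The added ones, at DNMT1 and DNMT3B, do hold NG peaks, which covered less than 50% of the region. The DNMT1 region (10112122 to 10113533) had a peak in all 6 libraries, and the DNMT3B region (32855199 to 32855655) had one in NG 3 (percentile 34.4). Leaving out 1 library at a time, the peak number difference ran from −1.33 to 1.17 at UHRF1 (below 0 without NG 1 or SMG 1), from −1.33 to 0.167 at TET2 (above 0 without NG 2) and from −0.167 to 0.833 at DNMT3B (below 0 without SMG 2). NG-only regions ran from 0 to 1 (1 without NG 1 or NG 3) and SMG-only regions from 2 to 3. For the group-only counts in these alternatives no share over all regions at the same setting was worked out, so nothing is read from them. Apart from the merging, the SMG-only counts include the region for which TET3 was chosen. Of the 46 to 48 constant regions of the 8 windows, those with every SMG library higher ran from 4 to 8 (8.51% to 17.4%). The shares over all constant regions were 8.33% to 12.7%. Those with every NG library higher ran from 2 to 6 (4.35% to 13%), where the shares over all were 8.25% to 11.7%. These counts include the TET3 window, whose contrast chose it, so nothing is read from them. Without the TET3 window 1 SMG-only region and 1 constant region with every NG library higher were left, an alternative added after the data were seen. Fewer libraries make such a separation easier; the cause of the other changes was not tested. Depth is unknown, so weak regions limit all group comparisons.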
